A study of Mus musculus with 5 samples.

Results

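Matrix metalloproteinases (MMPs) and their tissue inhibitors (TIMPs) were read in RNAseq libraries of macrophages sorted from the aorta of mice on a Western diet. The labels and the description of cell isolation give digested whole aortas, while the description of sequencing names the aortic sinus and libraries in triplicate, of which only those listed here were analysed. The set has 10 genes chosen by symbol, 7 encoding MMPs and 3 encoding TIMPs, out of the 55487 genes in the deposited table. The 2 groups were *Zeb1* WT/*Apoe* KO (2 libraries, labelled WT) and *Zeb1* ∆M/*Apoe* KO (3 libraries, labelled KO). In the *Zeb1* WT/*Apoe* KO mice both *Zeb1* alleles carry LoxP sites around exon 6 and no Cre is present, whereas the *Zeb1* ∆M/*Apoe* KO mice also carry Cre under the *Lyz2* promoter, which is active in myeloid cells. All mice were male, on a C57BL6/J background for the floxed allele, lacked *Apoe*, and received chow for 8 weeks from birth and then the Western diet for 10 weeks. The study's methods state that cells from 3 mice were combined per genotype and condition, so the p values below measure the spread between libraries, which may be technical. The groups are called WT and ∆M below, and the cells were sorted for CD45, CD11b and F4/80.

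MMPs are zinc-dependent endopeptidases, secreted or held at the membrane as inactive proenzymes, that together cleave most components of the extracellular matrix. TIMPs are small secreted proteins that bind the active site of MMPs and block it. In atherosclerotic plaques, macrophages are a main source of MMPs, and matrix breakdown in the fibrous cap is known from plaques that rupture.

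Total counts ranged from 20118545 to 50649912 per library, and the smallest amount taken as detected, 3 counts, was between 0.0597 and 0.248 CPM after TMM scaling of library sizes. This floor covers counting error only, since the cDNA was amplified by PCR. *Zeb1* had 0 counts in both WT libraries and 22, 0 and 0 counts in ∆M replicates 1, 2 and 3, so the targeted gene did not check the genotype labels. *Apoe* had 0 to 86 counts. *Ptprc*, *Itgam* and *Adgre1*, the genes of the sorted surface markers, were counted in all libraries except for *Itgam* in ∆M replicate 1 (0 counts). That library stood apart, with 20055 genes counted 1 to 100 times against 3993 to 7752 in the other 4, and with counts on 565 of 1117 olfactory receptor genes against 76 to 175. These receptor genes, not known for a role in macrophages, had a median of 8 counts where counted in that library, and 90% of them had up to 27.0 counts.

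On mouse chromosome 9, 10 MMP genes lie side by side in a stretch of 427072 bases (7272514 to 7699585, GRCm38), and 3 of the set, *Mmp13*, *Mmp12* and *Mmp8*, are among them. The promoters of these 3 neighbours are shown because they are the members whose counts came mostly from the WT libraries. Each is the 250 bases before a transcription start in RefSeq on GRCm38.p6, plus strand, read 5′ to 3′, and capitals mark the letters TGANTCA, the site bound by AP-1 (FOS and JUN proteins).
Mmp12 first start, chr9:7344147-7344396: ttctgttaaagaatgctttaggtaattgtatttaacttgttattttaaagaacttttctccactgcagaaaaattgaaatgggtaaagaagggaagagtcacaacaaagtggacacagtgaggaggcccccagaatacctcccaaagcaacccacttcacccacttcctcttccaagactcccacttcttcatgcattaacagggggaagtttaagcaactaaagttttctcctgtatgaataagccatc
Mmp12 second start, chr9:7347124-7347373: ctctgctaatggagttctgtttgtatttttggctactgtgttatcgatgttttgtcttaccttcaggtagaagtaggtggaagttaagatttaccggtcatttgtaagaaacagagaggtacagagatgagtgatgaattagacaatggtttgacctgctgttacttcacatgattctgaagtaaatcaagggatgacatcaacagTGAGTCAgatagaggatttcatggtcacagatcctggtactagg
Mmp13, chr9:7272264-7272513: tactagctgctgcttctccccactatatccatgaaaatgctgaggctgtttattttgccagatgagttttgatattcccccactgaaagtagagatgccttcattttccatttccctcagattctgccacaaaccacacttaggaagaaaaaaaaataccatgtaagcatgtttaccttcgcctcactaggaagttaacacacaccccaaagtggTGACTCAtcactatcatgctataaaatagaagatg
Mmp8, chr9:7558179-7558428: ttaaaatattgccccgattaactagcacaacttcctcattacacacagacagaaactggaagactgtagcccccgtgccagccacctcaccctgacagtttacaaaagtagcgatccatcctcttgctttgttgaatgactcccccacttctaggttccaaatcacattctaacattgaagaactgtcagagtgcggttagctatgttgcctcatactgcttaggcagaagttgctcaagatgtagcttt

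Promoter windows of 300 bases (250 before the start and 50 after) were found for 7 of the 10 genes, in 8 windows. TGANTCA, searched on both strands, was present in 2 genes, 44 bases before the second start of *Mmp12* and 35 bases before the start of *Mmp13*, and in 7.81% of all 32851 windows. CACCTG, an E-box to which ZEB1 is known to bind, was searched on both strands and found in 2 genes, *Timp2* (CAGGTG, 107 bases before the start) and *Timp3* (CACCTG, 232 bases before), and in 20.2% of all windows. In GENCODE, 203 of the 250 bases before this RefSeq start of *Timp2*, and 40 of those before that of *Timp3*, are annotated as exon, as are 16 of those printed for the first start of *Mmp12*. No match overlapped one of the other motif. These matches describe letters and do not show binding.

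*Mmp12* encodes macrophage elastase, which degrades elastin (chromosome 9 from 7344381 to 7369499, ENSMUSG00000049723.14). It had 48181 and 2165 counts in the WT libraries and 36, 0 and 0 counts in the ∆M libraries. Both WT libraries were above all 3 ∆M libraries, although they differed from each other by 4.79 on the log2 CPM scale. Mean CPM was 904 ± 1189 (SD, n = 2) in WT and 0.990 ± 1.72 (SD, n = 3) in ∆M. On the log2 scale the fold change was −9.84 (standard error 4.66), and the quasi-likelihood test of edgeR left it at an adjusted p of 1 (Benjamini-Hochberg, 7905 genes). A two-sided exact permutation test gave p = 0.1, the smallest p that the 10 splits into 2 and 3 libraries allow. In these bulk libraries, fewer cells of a type and less RNA per cell cannot be told apart. The 36 counts in ∆M replicate 1 were above the 27.0 counts that bounded 90% of the counted olfactory receptor genes there. These counts were not divided by gene length, and *Mmp12* has 7237 exon bases. They therefore do not place *Mmp12* above the trace counts of that library. *Mmp12* is one of the genes drawn by the study in its heatmap of these libraries, so its separation is not independent evidence. It shares 157 exon bases with *Mmp1b* on the opposite strand, which had 0 to 3 counts.

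**Figure D1:**
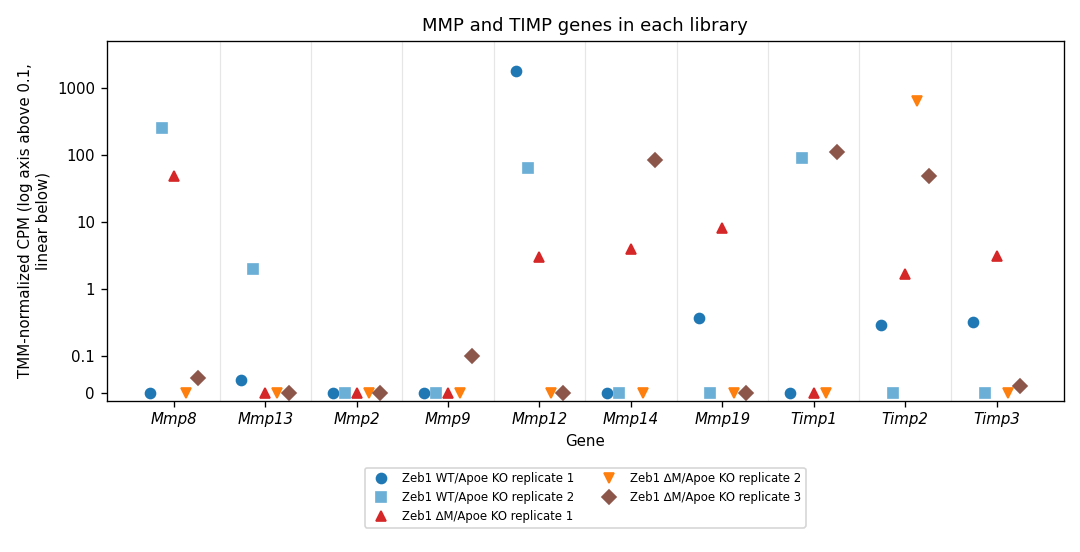
TMM-normalized CPM (vertical, logarithmic above 0.1 and linear down to 0) of the 10 genes (horizontal, ordered by role) in the 5 libraries, 1 point per library with a shape and color for each. *Mmp12* has both WT points, 1744 and 62.8 CPM, above the ∆M points, and *Timp2* has all 3 ∆M points, the lowest at 1.65 CPM, above the WT points.

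The collagenases cut fibrillar collagen. *Mmp8*, the collagenase stored in neutrophil granules (chromosome 9 from 7558456 to 7568485), was counted 0 and 8665 times in the WT libraries and 581, 0 and 2 counts in the ∆M libraries. Its high values came from 1 library of each genotype, and the genotypes overlapped. It gave −2.97 on the log2 scale (standard error 4.96, adjusted p = 1 in the same edgeR test), and 11.48 without WT replicate 2, the library with the most counts. The latter value is no bound, because the WT library left had 0 counts. *Mmp13*, the main interstitial collagenase of rodents (chromosome 9 from 7272514 to 7283331), showed 1 and 69 counts in the WT libraries and 0 counts in the ∆M libraries. Mean CPM in WT, 1.02 ± 1.39 (SD, n = 2), was thus at least 8.10-fold higher than what 3 counts per ∆M library would give, and it rested on WT replicate 2. *Mmp13* did not pass the filter on low counts. The exact permutation test, two-sided, gave p = 0.1.

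Together, the 10 MMP genes of the chromosome 9 stretch had 48182 and 10899 counts in the WT libraries and 626, 2 and 2 counts in the ∆M libraries. Of these genes, 5 had no count in any library, among them *Mmp3*, *Mmp10* and *Mmp7*, which encode stromelysins and matrilysin. The sum in WT replicate 1 was *Mmp12* but for 1 count, and that in WT replicate 2 was mostly *Mmp8*, so different genes made up the high values.

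The gelatinases, which cut denatured collagen and type IV collagen, were near or below detection. *Mmp2* (chromosome 8 from 92827291 to 92853420) had 0 counts in all 5 libraries, which by counting error alone allows at most 0.0597 to 0.248 CPM. *Mmp9* (chromosome 2 from 164940780 to 164955850) had 5 counts in ∆M replicate 3 and 0 counts in the other 4 libraries. Neither passed the filter, and neither was tested. Genes abundant in macrophages were also at 0 in some libraries, such as *Cd68*, with 0 counts in WT replicate 1 and 44664 in WT replicate 2, so a count of 0 here is not a measure of sequencing depth alone.

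*Mmp14*, the membrane-anchored proteinase that activates the proenzyme of *Mmp2* (chromosome 14 from 54431612 to 54445364), had 0 counts in both WT libraries. It had 47, 0 and 4140 counts in the ∆M libraries. Replicate 3 held nearly all of its counts, and replicate 2 was at 0 like the WT libraries. Mean CPM in ∆M, 28.8 ± 46.5 (SD, n = 3), was thus at least 294-fold higher than what 3 counts per WT library would give. edgeR gave an adjusted p of 1 and the two-sided exact permutation test p = 0.4. *Mmp19*, a secreted MMP of broad substrate range (chromosome 10 from 128790910 to 128800824), showed 10 and 0 counts in the WT libraries and 99, 0 and 0 counts in the ∆M libraries. Its log2 fold change of 3.88 (standard error 4.55, edgeR adjusted p = 1) was within the spread between libraries, and it was −1.95 with limma-voom. Its exons overlap those of *Tmem198b* over 789 bases, which had 18 counts in WT replicate 1 and 0 in the others, and those of *Gm47093* over 212 bases, which had 0 in all.

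Among the inhibitors, *Timp2*, which also takes part in the activation of the *Mmp2* proenzyme (chromosome 11 from 118301069 to 118355740, minus strand, ENSMUSG00000017466.9), had 8 and 0 counts in the WT libraries. It had 20, 26624 and 2400 counts in the ∆M libraries. Every ∆M library was above both WT libraries, but replicate 1 only by few counts, and 20 counts lie within the range of the olfactory receptor genes in that library. Mean CPM was 0.145 ± 0.205 (SD, n = 2) in WT and 224 ± 346 (SD, n = 3) in ∆M. On the log2 scale the fold change was 10.56 (standard error 7.12, edgeR adjusted p = 1), and the two-sided exact permutation p was 0.2.

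*Timp1*, an inducible inhibitor of most secreted MMPs (chromosome X from 20870166 to 20874735), showed 0 and 3118 counts in the WT libraries and 0, 0 and 5568 counts in the ∆M libraries. One library of each genotype was thus high and all others were at 0. It had a log2 fold change of −0.29 (standard error 4.88, edgeR adjusted p = 1), and the sign depended on the method, being 0.023 with limma-voom. *Timp3*, the inhibitor that binds to the matrix (chromosome 10 from 86300372 to 86349506), showed 9 and 0 counts in the WT libraries and 37, 0 and 1 counts in the ∆M libraries. The genotypes overlapped, with 2.62 on the log2 scale (standard error 4.51, edgeR adjusted p = 1) and −1.19 with limma-voom. It shares 1733 exon bases with *Syn3* on the opposite strand, counted 3 and 22 times in the same replicate 1 libraries and 0 times elsewhere. Since no source used here states that reads were counted by strand, reads from the shared bases cannot be told apart.

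Of the 10 genes, 7 passed the filter on low counts (*Mmp8*, *Mmp12*, *Mmp14*, *Mmp19*, *Timp1*, *Timp2* and *Timp3*). edgeR's quasi-likelihood test called 0 of the 7 at an adjusted p under 0.05, as it did over all 7905 genes tested (0%). An adjusted p above the threshold does not show that levels were alike. Without adjustment, 1 of the 7, *Mmp12*, passed 0.05 in the same edgeR test, where 86 (1.09%) of all genes tested passed. DESeq2 with default options gave an adjusted p to 6 of the 10 genes and called 1, *Timp2* (adjusted p = 0.0414), and 12.1% of all genes that it tested (6.87% higher and 5.25% lower in ∆M). It gave *Mmp14* an adjusted p of 0.0561 and *Mmp12* one of 0.132, and none to *Timp1*. limma-voom with sample quality weights called *Mmp12* (adjusted p = 1.58e-06) and *Timp2* (adjusted p = 0.0114), 2 of the 7, against 2.96% of all genes tested (2.21% higher and 0.746% lower in ∆M). Without ∆M replicate 1, a choice made after seeing the data, DESeq2 called *Mmp8* (log2 fold change −12.63), *Mmp12* (−18.41), *Mmp14* (25.14) and *Timp2* (10.57), 4 of the 6 genes of the set that had an adjusted p in that fit, and 30.0% of all genes tested (14.3% higher and 15.7% lower in ∆M). Fitted values of *Mmp14*, and of *Mmp12* in that fit, are no bounds, because all libraries of 1 genotype were at 0. Values of the 2 genotypes did not overlap for *Mmp12* and *Timp2*, 2 of the 7 tested (28.6%), where 11.2% of all genes tested did not overlap (6.68% higher and 4.54% lower in ∆M). With upper-quartile scaling *Mmp12* overlapped. The difference in mean log2 CPM was larger than the range within both genotypes for 1 gene, *Mmp12* (−10.55 against 4.79 and 5.66), and for 4.92% of all genes tested. For *Timp2* it was 8.002 against 2.55 and 8.51. The median log2 fold change was 2.62 over the 7 genes and 0.78 over all genes tested. With 4 of the 7 above 0 and 3 below, this median was the value of *Timp3*, which was −1.19 with limma-voom.

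**Figure D2:**
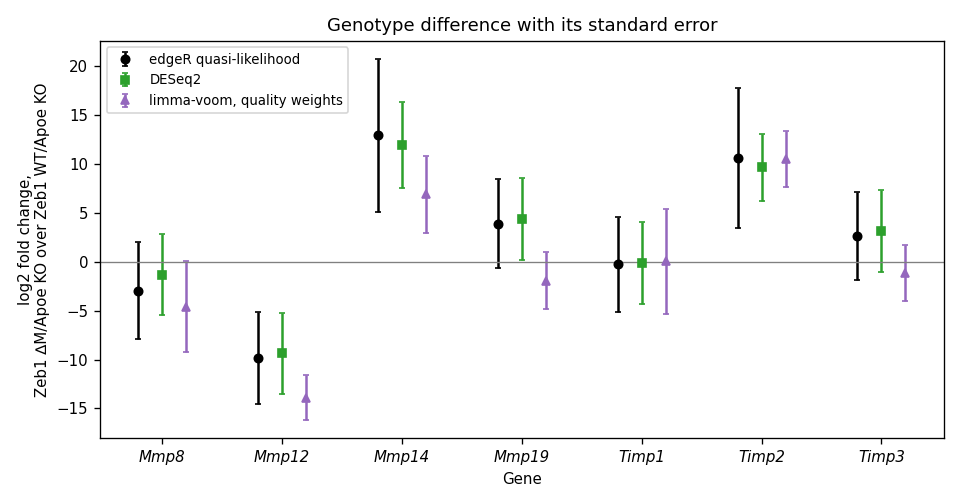
Log2 fold change of ∆M over WT (vertical) for the 7 tested genes (horizontal), with bars of 1 standard error, from edgeR (circles), DESeq2 (squares) and limma-voom (triangles). *Mmp12* lies below 0 and *Mmp14* and *Timp2* above 0 by all 3 methods, at −9.84, 12.91 and 10.56 in edgeR (*Mmp14* at 6.88 in limma-voom), while *Mmp19*, *Timp1* and *Timp3* do not keep 1 sign.

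Levels were compared between genes as CPM per kilobase of merged exons. *Mmp12* came first with a mean over the 5 libraries of 50.03 ± 107 (SD, n = 5), followed by *Timp1* (45.3 ± 62.6), *Timp2* (34.5 ± 70.2) and *Mmp8* (24.7 ± 45.0). *Mmp14* had 2.90 ± 6.12 CPM per kilobase, and *Mmp19*, *Mmp13*, *Timp3* and *Mmp9* had means from 0.483 down to 0.0056, with *Mmp2* at 0. The SD exceeded the mean for all 9 counted genes, so no neighbours in this order differed beyond their spread. The place of *Mmp12* rested on WT replicate 1, without which its mean was 2.27, below *Timp1* (56.7), *Timp2* (43.1), *Mmp8* (30.9) and *Mmp14* (3.62). Within WT the order was led by *Mmp12* (125 ± 164, SD, n = 2), with *Mmp8* (51.8 ± 73.3) and *Timp1* (50.9 ± 72.0) nearly level behind it. Within ∆M it was led by *Timp2* (57.5 ± 88.8, SD, n = 3) and *Timp1* (41.6 ± 72.1). At least 100 counts were reached by 5 of the 10 genes in any library, 1 of them in a single library and the other four in 2, and none in all 5. Over all genes with at least 100 counts in any library, 48.8% reached it in a single library and 4.07% in all 5.

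The summed level of the 7 MMP genes was 241 and 113 CPM per kilobase in the WT libraries and 23.1, 0 and 13.9 in the ∆M libraries. That of the 3 TIMP genes was 0.114 and 102 in the WT libraries and 0.798, 160 and 137 in the ∆M libraries. The MMP sums of the 2 genotypes did not overlap and the TIMP sums did. Of single genes tested, 4.54% were lower in ∆M without overlap, but this share is no background for a sum of genes. The WT sums were high through different genes, *Mmp12* (241) in replicate 1 and *Mmp8* (104) in replicate 2. With upper-quartile scaling the MMP sums overlapped too, at 3516 and 18.9 CPM per kilobase in WT and 135 (replicate 1), 0 and 2.69 in ∆M. Since the genes were chosen with results of these data known, the sums were not tested.

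**Figure D3:**
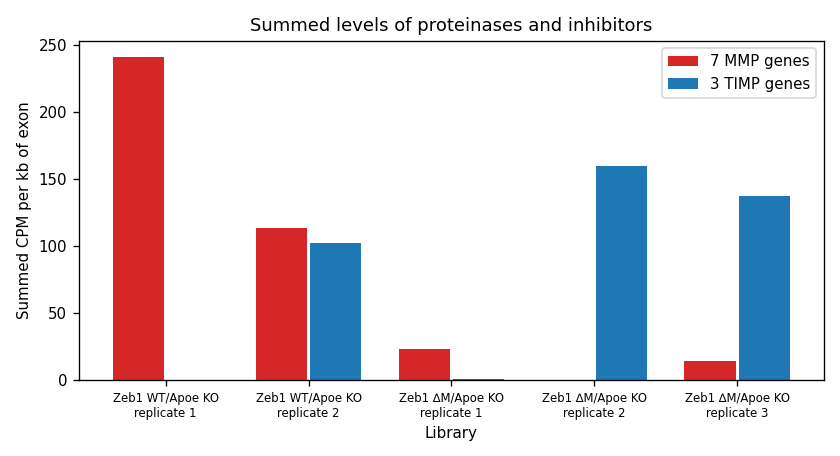
Summed CPM per kilobase of exon (vertical) of the 7 MMP genes (red) and the 3 TIMP genes (blue) in each of the 5 libraries (horizontal). The MMP bars of the WT libraries, 241 and 113, are above those of the ∆M libraries, 23.1, 0 and 13.9, with TMM scaling.

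The leading gene varied between libraries. *Mmp12* made up 99.9% of the counts of the 10 genes in WT replicate 1 (95% exact Clopper-Pearson interval 99.92 to 99.96%), and *Timp2* made up 100% in ∆M replicate 2 (interval from 99.99%). In WT replicate 2, *Mmp8* held 61.8% (61.0 to 62.6%), *Timp1* 22.2% (21.6 to 22.9%) and *Mmp12* 15.4% (14.9 to 16.1%). ∆M replicate 3 was split between *Timp1* with 46.0% (45.1 to 46.8%), *Mmp14* with 34.2% (33.3 to 35.0%) and *Timp2* with 19.8% (19.1 to 20.5%). In ∆M replicate 1, *Mmp8* held 70.9% (67.6 to 73.9%) of only 820 counts. The intervals cover counting error only, and shares of counts also depend on the length of each gene.

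**Figure D4:**
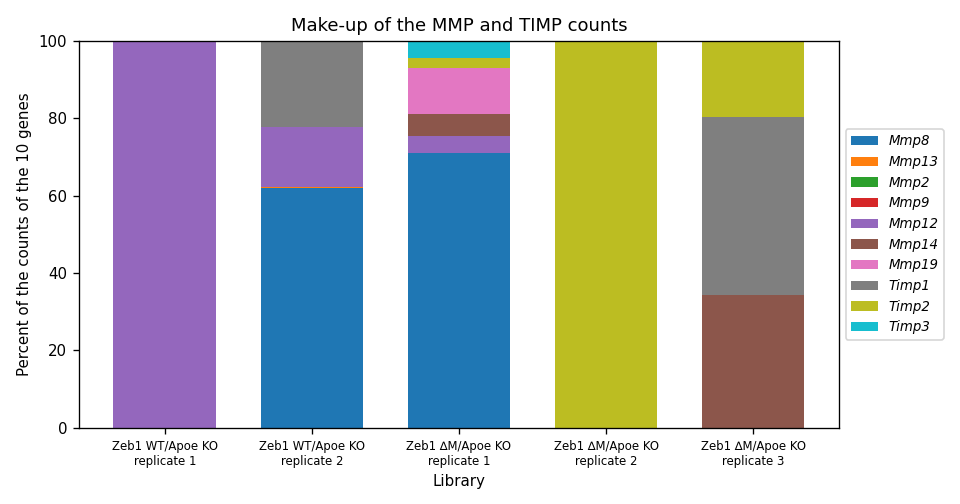
Percent of the summed counts of the 10 genes (vertical) held by each gene (colors) in each of the 5 libraries (horizontal). *Mmp12* fills WT replicate 1 and *Timp2* fills ∆M replicate 2, while *Mmp8* is the largest part in WT replicate 2 (61.8%) and ∆M replicate 1 (70.9%).

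Markers of other cells were read beside these genes. Sorting for CD45 and F4/80, and in the methods also CD11b, is meant to remove fibroblasts, smooth muscle, endothelium and lymphocytes, whereas neutrophils carry CD45 and CD11b but little F4/80. Of 11 neutrophil markers, 4 had 0 counts in every library, namely *Elane*, *Mpo*, *Camp* and *Ngp*, which encode granule proteins made by neutrophil precursors. The 11 markers summed to 2617 and 883 CPM in the WT libraries and 2737, 1259 and 139 CPM in the ∆M libraries. In ∆M replicate 1 the sum was nearly all *S100a8* (2734 CPM). *Ly6g* had at most 1 count, *Ltf* at most 7 and *Cxcr2* at most 105. *S100a8*, an abundant calcium-binding protein of neutrophils and monocytes, had 962 to 33862 counts. *S100a9*, its partner, had 29483 and 10969 counts in the WT libraries and 0, 4180 and 1041 counts in the ∆M libraries, without overlap (log2 fold change −4.13, standard error 3.87, edgeR adjusted p = 1). *Csf3r*, the receptor for granulocyte colony-stimulating factor, had 33 and 7309 counts in the WT libraries and 15, 17767 and 4976 counts in the ∆M libraries. *Mmp8* was highest in WT replicate 2, had 581 counts in ∆M replicate 1, and was at 0 in ∆M replicate 2. *Retnlg* had 8892 and 355 counts in the WT libraries and 0, 9370 and 0 counts in the ∆M libraries. The part of other cells in the *Mmp8* counts was not tested.

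**Figure D5:**
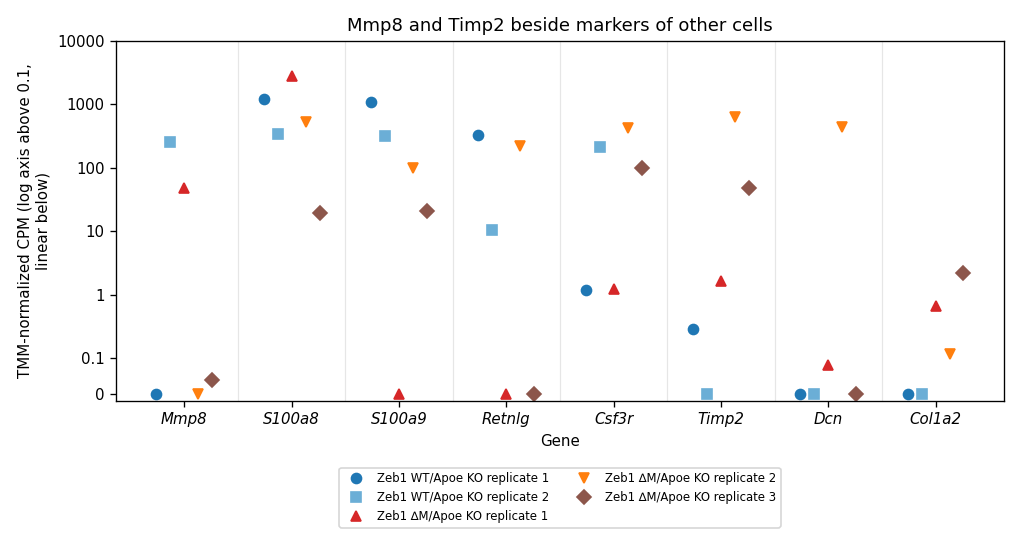
TMM-normalized CPM (vertical, logarithmic above 0.1 and linear down to 0) of *Mmp8* with 4 neutrophil markers and of *Timp2* with 2 fibroblast markers (horizontal), 1 point per library. *Mmp8* is at 0 in both libraries with the most *Retnlg*, and *Timp2* and *Dcn* are both highest in ∆M replicate 2.

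Of 11 fibroblast and smooth muscle markers, 4 (*Lum*, *Acta2*, *Tagln* and *Cnn1*) had 0 counts in every library. The 11 markers summed to 0.109 and 0 CPM in the WT libraries and 7.34, 444 and 2.31 CPM in the ∆M libraries. The value of 444 was nearly all *Dcn*, which encodes the collagen-binding proteoglycan decorin and had 19005 counts in ∆M replicate 2, the library with the most *Timp2*, and 0 to 1 count elsewhere. In ∆M replicate 3, *Timp2* had 2400 counts with *Dcn* at 0. *Pdgfrb*, a receptor of mural cells, had 31 counts in ∆M replicate 1, 3 in replicate 3 and 0 elsewhere. *Col1a2*, a chain of type I collagen, had 0 counts in both WT libraries and 8, 5 and 111 counts in the ∆M libraries, without overlap, with an adjusted p of 1 from edgeR. The part of these cells in the *Timp2* counts was not tested. The 7 endothelial markers summed to 0.140 to 72.3 CPM, with *Cdh5*, *Tek* and *Emcn* at 0 in every library. *Kdr*, the VEGF receptor of endothelium, had 1455 and 6 counts in the WT libraries and 0, 5 and 0 counts in the ∆M libraries, without overlap except with upper-quartile scaling, and did not pass the filter. Like *Mmp12*, it was highest in WT replicate 1, and the part of these cells in the *Mmp12* counts was not tested. *Pecam1* had 2487 counts in WT replicate 2, 2628 in ∆M replicate 3 and 0 to 21 elsewhere, and *Vwf* at most 37. The 8 T and B cell markers summed to 7.01 to 1340 CPM, the highest in WT replicate 2, with the B cell genes *Cd79a* and *Cd79b* at 0 throughout. There *Cd3g*, *Cd3d* and *Trac*, of the T cell receptor complex, had 19179, 18115 and 7302 counts. *Cd3g* also had 13275 counts in ∆M replicate 2, and *Cd3d* and *Trac* had 12795 and 4411 in ∆M replicate 3. The 12 macrophage markers summed to 26295 to 46375 CPM, and 8 to 11 of them had more than 3 counts in each library. The highest sum, in ∆M replicate 1, was nearly all *C1qb* (32883 CPM) and *Lyz2* (13335 CPM). In that library *Adgre1* had 1068 counts, *Ptprc* 475 and *C1qc* 257. The rest had few or none, at 33 for *Cd14*, 25 for *Csf1r*, 22 for *Mertk*, 10 for *Cd68*, 5 for *C1qa*, 2 for *Fcgr1* and 0 for *Itgam*. *Lyz2*, whose promoter drives Cre, was at 21582 and 22555 CPM in the WT libraries and at 13335, 20036 and 17312 CPM in the ∆M libraries. It did not overlap with TMM scaling, and overlapped with total counts, RLE and upper-quartile scaling. *C1qb*, a complement gene of tissue macrophages, had 38760 to 398502 counts, and *Cd14*, a receptor for lipopolysaccharide, 33 to 156741 counts.

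Of 17 further MMP and TIMP genes, 6 had 0 counts in every library and 10 exceeded 3 counts in any. All 10 did so in ∆M replicate 1, against 4, 0, 0 and 2 genes in the other libraries. The largest counts were 63 for *Mmp17*, 31 for *Mmp15* and 27 for *Mmp24*, each in ∆M replicate 1. None of the 4 that passed the filter was called by edgeR (0 of 4), and their median log2 fold change was 1.77.

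ADAM and ADAMTS proteinases, which shed membrane proteins and cut proteoglycans, had 8 of 19 genes tested. None was called by edgeR, which called 0% of all genes tested, and none was without overlap. Of their log2 fold changes, 4 were above 0 and 4 below. *Adam10*, a sheddase of many receptors, had 0 and 2480 counts in the WT libraries and 10, 4885 and 1332 counts in the ∆M libraries. *Adam15* had 2910 and 770 counts in the WT libraries and 28, 1225 and 1 counts in the ∆M libraries, and *Adam9* reached 5689 counts in ∆M replicate 2 with 0 to 4 elsewhere. Of 15 regulators of MMP activity, 9 were tested, none was called by edgeR and none was without overlap. *Plaur*, the receptor that holds urokinase at the cell surface, had 0 and 22617 counts in the WT libraries and 24, 17171 and 17968 counts in the ∆M libraries. *Cd44*, a hyaluronan receptor, had 21687 and 10835 counts against 0, 23763 and 372 counts, and *Bsg*, known as an inducer of MMPs, 0 and 15574 counts against 1, 2687 and 5824 counts. These regulators overlapped between genotypes.

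Of 10 genes of cysteine cathepsins, a further group of matrix-degrading proteinases of macrophages, and of their inhibitors, 8 were tested and edgeR called 0. *Ctss*, an elastolytic cathepsin, had 28660 and 169426 counts in the WT libraries and 228337, 155833 and 315973 counts in the ∆M libraries. *Ctsb* had 1836 and 242975 counts against 1187, 79596 and 202396 counts. The inhibitors *Cst3* and *Cstb*, which encode cystatin C and cystatin B, were the 2 genes of this list without overlap, both higher in ∆M, as were 6.68% of all genes tested. *Cst3* had 120662 and 141078 counts in the WT libraries and 475684, 272457 and 386342 counts in the ∆M libraries. It had a log2 fold change of 2.07 (standard error 1.61, edgeR adjusted p = 1). *Cstb* had 8243 and 2621 counts against 19808, 17892 and 21011 counts (log2 fold change 2.14, standard error 3.46, edgeR adjusted p = 1). Both overlapped with RLE and with upper-quartile scaling. *Ctsk*, a collagenolytic cathepsin, had at most 1 count.

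Of 18 genes of matrix proteins that MMPs cut, 5 were tested and none was called by edgeR. *Fn1*, the gene of fibronectin, had 0 and 8134 counts in the WT libraries and 4, 11934 and 1404 counts in the ∆M libraries. *Col6a1* had 2756 counts in ∆M replicate 2 and 0 to 5 elsewhere, and *Eln*, the gene of the *Mmp12* substrate elastin, had 0 and 2 counts against 22, 0 and 0 counts.

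The genes whose levels across the 5 libraries were closest to those of *Mmp12*, by Euclidean distance in log2 CPM among 7898 tested genes outside the set, were *Mrgpra2b* (distance 1.57), *Nipa2* (1.84) and *Fiz1* (2.06). *Mrgpra2b* had 26212 and 2979 counts in the WT libraries and 15, 0 and 0 counts in the ∆M libraries. *Nipa2* had 15052 and 2670 counts against 22, 0 and 0 counts. *Fiz1* had 15058 and 3492 counts against 18, 0 and 0 counts. With 5 libraries this likeness is a description.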

How the data were processed

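Aortic macrophages were sorted by FACS, and libraries were prepared with the SMART-Seq v4 Ultra Low Input kit, which amplifies cDNA of few cells. The authors mapped paired-end reads (2 × 75 bases) to GRCm38 with STAR (version 2.5.3a per the submitters' notes), quantified genes with RSEM (1.3.0) and GENCODE mouse annotation, and deposited expected counts as whole numbers, without normalization. Whole counts were used as they are.

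Genes were kept with filterByExpr (minimum count 10) in edgeR 4.0.16 (R 4.3.3), scaled with TMM and tested with the quasi-likelihood test between genotypes without covariates, with Benjamini-Hochberg adjustment over all genes tested and a threshold of 0.05. Standard errors are the log2 fold change over the square root of the test's F. Log2 CPM used a prior count of 2. Where no library of a genotype had more than 3 counts, folds were taken against the mean CPM that 3 counts per library give. The alternatives were DESeq2 1.42.0, limma-voom (limma 3.58.1) with sample quality weights, RLE and upper-quartile scaling, no filter, at least 10 counts in every library, a replicate block, each library left out, a threshold of 0.1, and TPM for levels. Counts were simulated with log2 changes of 3 in either direction and 1 dispersion for all genes. On them edgeR recovered most changed genes at a low dispersion and none at 6.44, the dispersion estimated from these libraries. Its lack of calls thus says little about whether genes differ by that amount. Changes as large as those fitted for *Mmp12*, *Mmp14* and *Timp2* were not simulated.

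The 10 genes and the lists (other MMP and TIMP genes, ADAM and ADAMTS, regulators of MMP activity, cathepsins and cystatins, matrix substrates, AP-1 subunits and 5 lists of cell markers) were chosen with earlier results of these data known. The rule for named genes takes the 10 genes, *Zeb1*, *Lyz2*, *Apoe*, the sorted markers, the 3 most abundant genes of each list and those without overlap, genes whose exons overlap those of a member and the 3 genes nearest to *Mmp12*. Others, and the olfactory receptor genes, were named after their values were seen. Coordinates and exon lengths come from GENCODE M21 and promoters from RefSeq, both on GRCm38, and all 10 identifiers matched GENCODE with their version. Both genotypes have a replicate 1 and a replicate 2, and the deviations of same-numbered libraries had a correlation of 0.18 across genes.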

Additional observations from a re-analysis of the deposited data

How the results depend on the processing

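The count of genes called, 0 with edgeR, was also 0 with RLE or upper-quartile scaling, without the filter, with at least 10 counts in every library, at a threshold of 0.1 and, at 0.05, with each library left out in turn (0 to 0). It was 234 with limma-voom, 790 with DESeq2 and 2328 with DESeq2 without ∆M replicate 1, an alternative added once the data had been seen. Of the 10 MMP and TIMP genes, 0 were called under the same edgeR alternatives (0 to 0 with a library left out, where 3 to 8 of them were tested), of which the filter of 10 counts in every library left none of them to test. There were 2 with limma-voom, 1 with DESeq2 and 4 in that last fit (*Mmp8*, *Mmp12*, *Mmp14* and *Timp2*), in which 30.0% of all genes tested were called. The labels do not say that a replicate number marks a shared batch, and a paired fit that blocks on this number gave 0 genes and 0 members. The count of 2 members without overlap was 1 with upper-quartile scaling, 3 with *Mmp13*, which the filter removed, and 2 to 3 with a library left out.

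Of 78 alternative log2 fold changes of the 7 tested genes, 12 had the opposite sign. *Mmp8* (−2.97) ranged from −4.28 to 11.48 with a library left out and was 2.15 with upper-quartile scaling and 11.48 without WT replicate 2. *Mmp19* (3.88) was −1.95 and *Timp3* (2.62) −1.19 with limma-voom, and −6.13 and −4.57 with DESeq2 without ∆M replicate 1. *Timp1* (−0.29) ranged from −1.16 to 13.35 with a library left out and was 0.229 without the filter, 0.023 with limma-voom, −13.46 with the replicate block, 0.273 in that DESeq2 fit, and 13.35, 0.224 and 0.388 without WT replicate 2 and ∆M replicates 1 and 2. *Mmp12* ranged from −18.38 to −6.30 and *Timp2* from 7.42 to 15.99 with a library left out, without change of sign. *Timp2* (10.56) was 5.31 with upper-quartile scaling, and *Mmp14* (12.91) was 6.61 with the replicate block, 6.88 with limma-voom and 12.96 to 13.44 with a library left out, where it could be fitted. Where a genotype was left with 1 library, that library was assumed to vary like the others. The values 11.48 for *Mmp8*, 13.35 for *Timp1*, 15.99 for *Timp2* and −18.38 for *Mmp12* are no bounds. In each of these fits the libraries left in 1 genotype were at 0. The median log2 fold change of all genes tested was 0.78 with TMM, 1.24 with RLE and 0.29 with upper-quartile scaling. Mean levels per length were also taken as TPM, a unit on another scale than CPM per kilobase. They were 138 against 50.03 CPM per kilobase for *Mmp12*, 108 against 45.3 for *Timp1* and 89.6 against 34.5 for *Timp2*. These genes and *Mmp8* (56.1 TPM) kept their order. The lowest WT sum of the 7 MMP genes minus the highest ∆M sum, 89.97 CPM per kilobase, was 98.9 with total counts, 10.9 with RLE and −116 with upper-quartile scaling, alternatives added later. Apart from the change of unit to TPM, the causes of these changes were not tested.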

Other observations

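The FOS and JUN genes, whose products form AP-1, were read because TGANTCA lies before *Mmp12* and *Mmp13*. Of 7 genes, 6 were tested and none was called (0 of 6) by edgeR, with a median log2 fold change of 0.87. *Junb* had 13972 and 63984 counts in the WT libraries and 40321, 62523 and 17738 counts in the ∆M libraries. *Fos* had 11622 and 44718 counts against 17738, 19648 and 57819 counts, and *Jun* 22743 and 18803 counts against 15, 42538 and 33167 counts. *Fosl1* had 0 counts in every library. The 2 genotypes overlapped for each gene of this list.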
